A study of Arabidopsis thaliana with 42 samples.

Results

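Polysome-bound RNA was set against total RNA of the wild-type Col-0 ecotype of Arabidopsis thaliana to find which gene classes were rich or poor in the ribosome-bound population. The members were chosen by their labels as the 3 polysome-bound and the 3 total RNA libraries of Col-0, which make 6 of the 42 samples of the series. All 6 came from untreated 5-day-old seedlings and were made from poly(A)+ RNA. For comparison, the same contrast was taken in rh6812, a mutant line in the Col-0 ecotype named for the DEAD-box helicases RH6, RH8 and RH12, with 3 polysome-bound and 3 total RNA libraries of untreated seedlings of the same age. A further 15 Col-0 libraries of rRNA-depleted RNA, from 5 times after cordycepin, which blocks new transcription, were used for the loss of each RNA over time. The labels give whole seedlings and no organ, so every ratio is an average over root and shoot. Whether replicates were grown as separate cultures is not stated, and the p-values thus cover the spread among these libraries alone, some or all of which could be technical.

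An mRNA that is being translated carries several ribosomes, and the sum of these complexes, the polysomes, can be separated from free ribosomes and unbound RNA. The share of an mRNA found in polysomes rises with initiation and is low for RNAs held in the nucleus, in storage granules or on the way to decay. Messages for secreted and membrane proteins are translated on the endoplasmic reticulum, those for plastid and cytosolic proteins on free polysomes. How the polysomes were isolated is not given in the sources used here. The values below are ratios between sequenced populations, not measurements of ribosome number.

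Library totals were 30654342, 9528637 and 18208158 counts for polysome RNA and 25864031, 21341895 and 11783437 counts for total RNA of Col-0. No pair of replicates agreed within counting noise, with a chi-square per degree of freedom of 3.11 to 7.12 between polysome libraries and of 4.17 to 10.9 between total libraries. The 10 most abundant genes held 9.70% to 9.76% of counts in polysome RNA and 11.5% to 13.6% in total RNA. The TMM factors, which scale libraries so that most genes have a ratio near 1, differed between the populations, at 0.953 to 0.980 in polysome RNA and 1.07 to 1.21 in total RNA.

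Of 20949 genes tested with edgeR's quasi-likelihood test and Benjamini-Hochberg adjustment, 6425 were higher in polysome RNA at an adjusted p under 0.05, 5658 were lower and 8866 did not pass. These are 30.7% of genes higher and 27.0% lower, and the groups did not overlap in 62.2%. All shares below are to be read against these, which are taken over genes of all levels. The lists differ in level, here given as CPM (reads scaled to a common depth after TMM). The median in total RNA was 321 CPM for plastid ribosomal proteins and 8.21 CPM for receptor-like kinases. Among genes that passed, did not overlap and had a mean of at least 3 log2 CPM, 5113 were higher and 2454 lower. The part of level in the shares of the lists was not tested. The ratio was uneven in size: 824 genes were higher by over 2-fold against 2579 lower by over 2-fold, and 12 were higher by over 4-fold against 960 lower by over 4-fold. The median log2 ratio of polysome over total RNA was 0.04, and the central 80% of genes lay between -1.29 and 0.77. The zero point depends on the scaling. With library size alone the median of all genes was -0.19, with 3841 genes higher and 8036 lower, so that 32.3% of calls were higher in place of 53.2%, and no gene changed from one direction to the other. Differences between class medians within a fit do not depend on that zero point, while the counts of higher and lower genes in a class do.

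Markers of root cell types were low in polysome RNA, and these levels accompany many of the classes below. All 9 root hair markers were lower, with a median log2 ratio of -3.54. Their summed level was 6.31 to 7.72 CPM in polysome RNA and 72.0 to 101 CPM in total RNA. SHV2 (AT5G49270), the COBRA-like protein of root hairs also known as COBL9, had 0.338, 0.321 and 0.231 CPM in polysome RNA, against 6.54, 6.31 and 6.41 CPM in total RNA. EXPA7 (AT1G12560), a root hair expansin, had 0.844, 1.07 and 2.08 CPM in polysome RNA, against 18.7, 14.4 and 20.4 CPM in total RNA. The populations did not overlap in any of the 9 genes, and RHD6 (AT1G66470), a bHLH factor that starts hair growth, had the smallest difference at -2.10 ± 0.52 (log2, SE). Because these are bulk samples, fewer cells of a type and less RNA per cell cannot be told apart. Neither can be told apart from a smaller ribosome-bound share of the same RNAs.

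The endodermis list showed the same direction with a smaller size. Of its 7 markers, 6 were lower and 1 did not pass, and the summed level was 37.5 to 42.2 CPM in polysome RNA and 99.6 to 137.4 CPM in total RNA. ESB1 (AT2G28670), a dirigent-like protein of the Casparian strip, had 17.2, 18.8 and 20.8 CPM in polysome RNA, against 76.7, 57.9 and 78.6 CPM in total RNA. MYB36 (AT5G57620), the factor that turns on Casparian strip genes, had a log2 ratio of -0.11 ± 0.20 SE (adjusted p = 0.666). Among 18 other root genes, 11 were lower, 1 was higher and 6 did not pass. The auxin carrier EIR1 (AT5G57090) had 4.62, 4.29 and 4.90 CPM in polysome RNA, against 12.8, 13.6 and 15.7 CPM in total RNA. GL2 (AT1G79840), the homeobox gene of non-hair cells and of trichomes, was the one higher gene, at 0.40 ± 0.09 (log2, SE), and it overlaps annotated loci on both strands, whose reads cannot be told apart here.

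Not every tissue list was low. Of 5 phloem markers 2 were higher and 3 did not pass, with a summed level of 307 to 328.6 CPM in polysome RNA and 254.9 to 283.2 CPM in total RNA. SUC2 (AT1G22710), the sucrose loader of companion cells, had 131, 147 and 143 CPM in polysome RNA, against 139, 122 and 150 CPM in total RNA, and the populations overlapped. The leaf sugar exporter SWEET11 (AT3G48740) had 104, 100 and 97.8 CPM in polysome RNA, against 65.7, 62.4 and 63.0 CPM in total RNA. Of 7 xylem markers 4 were lower and 3 did not pass, with XCP1 (AT4G35350), a peptidase of dying vessel cells, lowest at -1.53 ± 0.13 (log2, SE). Of 9 guard cell line markers 1 was higher, 3 were lower and 5 did not pass. Of 7 epidermis markers 2 were higher and 3 lower, with CER1 (AT1G02205), a wax alkane enzyme, at 1.89, 1.61 and 2.08 CPM in polysome RNA, against 9.25, 9.92 and 11.6 CPM in total RNA. Seed storage genes were near 0 in both populations, with a summed level of 0.75 to 4.44 CPM in polysome RNA and 0.49 to 1.11 CPM in total RNA, and none of the 3 tested passed. How much of any class difference below comes with these root marker levels was not tested.

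**Figure D1:**
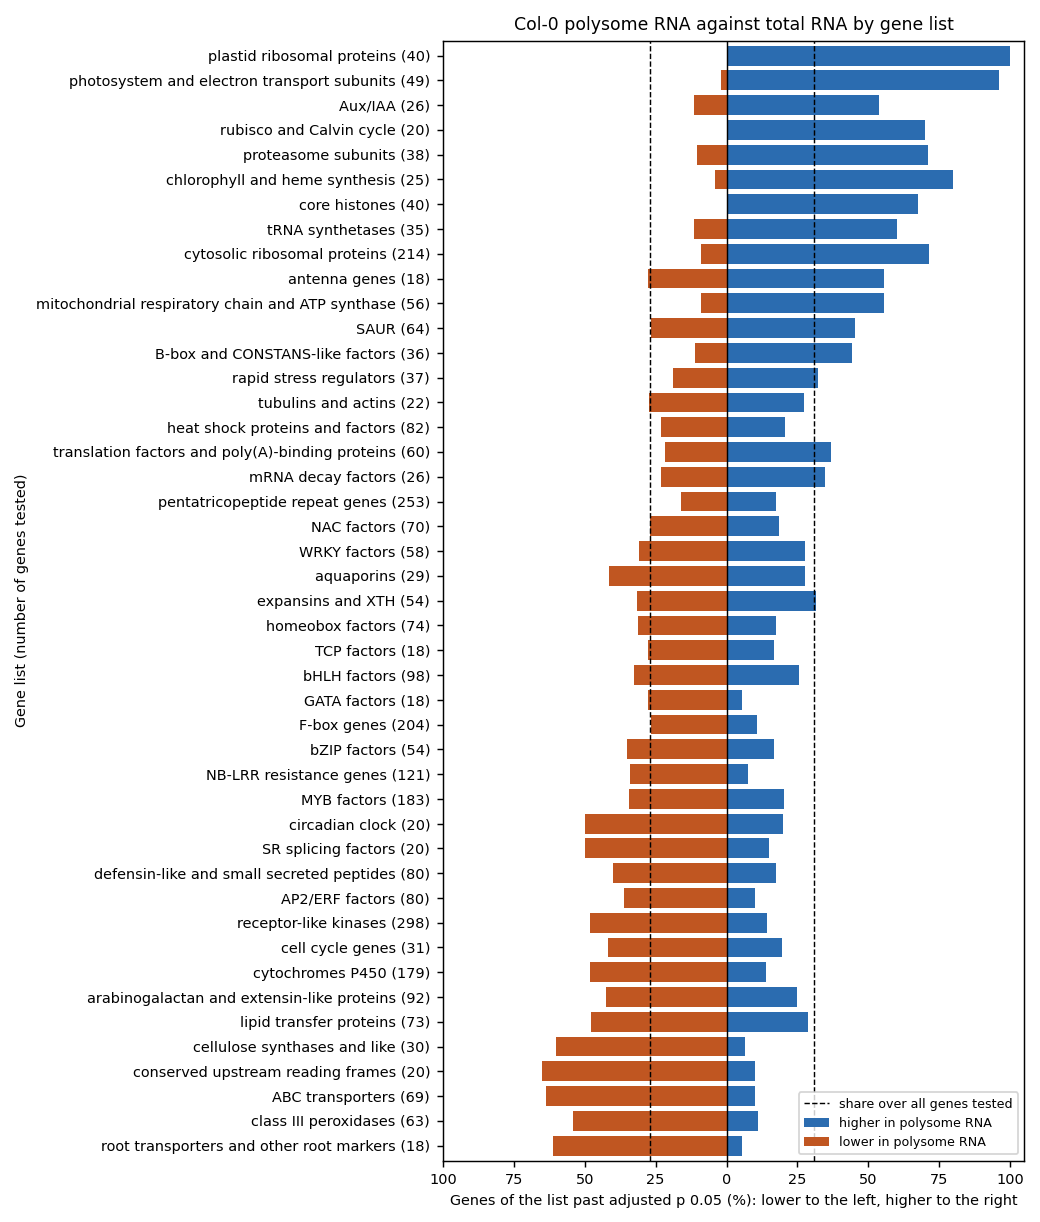
Share of each gene list, with at least 18 genes tested, that was higher (to the right) or lower (to the left) in polysome RNA than in total RNA of Col-0 at an adjusted p under 0.05, ordered by median log2 ratio with the highest at the top. Dashed lines mark the 30.7% higher and 27.0% lower of all 20949 genes; plastid ribosomal proteins reach 100% higher, and ABC transporters 63.8% lower.

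Genes of the ribosome itself were rich in polysome RNA. Of 214 cytosolic ribosomal protein genes tested, 153 were higher, 19 lower and 42 did not pass, with a median log2 ratio of 0.37. The small subunit had 64 of 86 genes higher and 5 lower, and the large subunit 86 of 115 higher and 11 lower. The acidic stalk proteins differed in count, with 3 of 13 higher and 3 lower. Near-identical paralogs make up much of this family, and how shared reads were counted is not stated, so single members are less certain than the family. Under library size alone, 93 were higher and 39 lower.

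The largest differences within the family were downward. AT2G40010, a P0 stalk protein of the L10 family, had 5.57, 6.96 and 6.28 CPM in polysome RNA, against 30.1, 25.6 and 34.5 CPM in total RNA (-2.28 ± 0.12 log2, SE, adjusted p = 1.90e-15). The L41 genes encode the smallest ribosomal protein, 25 amino acids long. AT3G56020, an L41 gene, had 46.0, 35.7 and 44.3 CPM in polysome RNA, against 167, 153 and 204 CPM in total RNA. AT3G11120, another, had 65.8, 53.8 and 68.1 CPM in polysome RNA, against 225, 226 and 275 CPM in total RNA. All 5 L41 genes were lower, with AT2G40205, AT3G08520 and AT1G56045 at -1.63, -1.81 and -1.0001 (log2); the last pair was singled out after the values were seen. The highest member was AT1G80750, of the L30/L7 family, with 42.1, 37.3 and 41.1 CPM in polysome RNA, against 12.9, 17.1 and 13.5 CPM in total RNA.

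Nuclear genes for plastid ribosomal proteins all went one way. All 40 were higher in polysome RNA, with a median log2 ratio of 0.87 and a summed level of 21090 to 21890 CPM in polysome RNA and 11860 to 12810 CPM in total RNA. PRPL28 (AT2G33450) had 302, 271 and 286 CPM in polysome RNA, against 94.9, 98.98 and 91.7 CPM in total RNA, a log2 ratio of 1.59 ± 0.08 SE. PSRP3/1 (AT1G68590), a protein particular to plastid ribosomes by annotation, had 312, 321 and 320 CPM in polysome RNA, against 132, 131 and 133 CPM in total RNA. The smallest ratio was that of RPS9 (AT1G74970), at 0.29 ± 0.08 (log2, SE, adjusted p = 0.00363). Scaled by library size alone, 35 of the 40 were higher and none was lower, and RPS9 did not pass. Of 8 mitochondrial ribosomal protein genes 5 were higher and 3 did not pass.

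Factors that work on the ribosome split by role. Of 45 initiation factor genes tested, 21 were higher and 5 lower, with a median log2 ratio of 0.26. Of 11 elongation factor genes 1 was higher and 5 were lower, with a median of -0.13, and of 4 poly(A)-binding protein genes 3 were lower. PAB2 (AT4G34110), a major poly(A)-binding protein, had 314, 306 and 296 CPM in polysome RNA, against 623, 535 and 626 CPM in total RNA. AT5G19510, a subunit of elongation factor EF1B, had 107, 100 and 102 CPM in polysome RNA, against 188, 160 and 201 CPM in total RNA. In the other direction AT5G54760, a SUI1-type initiation factor that helps select the start codon, had 102, 96.8 and 100 CPM in polysome RNA, against 55.2, 55.2 and 55.6 CPM in total RNA. AT1G29550, of the cap-binding eIF4E family, had the highest ratio of the list, 1.04 ± 0.17 (log2, SE). Over the whole list of 60 genes the median was 0.07, and it turned to -0.16 with library size alone. Among 35 aminoacyl-tRNA synthetase genes 21 were higher and 4 lower, with a median of 0.37.

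Photosynthesis genes encoded in the nucleus were rich in polysome RNA, except for part of the light-harvesting antenna. Of 49 genes for photosystem subunits, electron carriers and the plastid ATP synthase, 47 were higher, 1 was lower and 1 did not pass, with a median log2 ratio of 0.85. All 13 photosystem I genes and all 13 electron transport genes were higher, as were 19 of 21 photosystem II genes. PSAK (AT1G30380), a photosystem I subunit, had 6288, 6025 and 6314 CPM in polysome RNA, against 2409, 2581 and 2445 CPM in total RNA. PSAH2 (AT1G52230), another subunit, had 1579, 1547 and 1683 CPM in polysome RNA, against 617, 589 and 613 CPM in total RNA. NdhN (AT5G58260), of the NADH dehydrogenase-like complex of thylakoids, had the highest ratio of the list at 1.53 ± 0.09 (log2, SE). The one lower gene, AT3G63540 of the thylakoid lumen, was at -0.26 ± 0.10 (adjusted p = 0.0348), overlaps another locus on the same strand, and did not pass when polysome replicate 1, 2 or 3 or total replicate 1 or 3 was left out.

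The antenna genes, whose proteins bind chlorophyll and feed light energy to the photosystems, went both ways. Of 18 tested, 10 were higher, 5 lower and 3 did not pass. CAB1 (AT1G29930) had 14070, 13520 and 14050 CPM in polysome RNA, against 32720, 24700 and 33370 CPM in total RNA (-1.12 ± 0.11 log2, SE, adjusted p = 3.21e-10). CAB2 (AT1G29920) had 7727, 7891 and 7695 CPM in polysome RNA, against 13790, 11350 and 14940 CPM in total RNA. LHB1B1 (AT2G34430) was lower as well, at -0.94 ± 0.11. These genes for the main photosystem II antenna protein are near-identical copies, so the split of reads among them is uncertain, and CAB1 was among the most abundant genes of total RNA. LHCB2.3 (AT3G27690), of the next antenna class, had 1442, 1589 and 1772 CPM in polysome RNA, against 964, 875 and 1156 CPM in total RNA. LHCB4.1 (AT5G01530), a minor antenna protein, had a ratio of 0.32 ± 0.10, which did not pass with library size alone, where 7 antenna genes were higher and 7 lower.

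Carbon fixation and pigment synthesis went with the photosystems. All 5 rubisco and rubisco activase genes were higher, and of 15 other Calvin cycle genes 9 were higher, none was lower and 6 did not pass. RBCS1A (AT1G67090), a rubisco small subunit, had 21500, 20590 and 21900 CPM in polysome RNA, against 14150, 10410 and 15660 CPM in total RNA. RPE (AT5G61410), the ribulose-phosphate epimerase, had 810, 835 and 785 CPM in polysome RNA, against 375, 371 and 380 CPM in total RNA. FBA2 (AT4G38970), a plastid aldolase, had the lowest ratio, -0.18 ± 0.10 (log2, SE, adjusted p = 0.124). Of 25 genes for chlorophyll and heme synthesis 20 were higher, 1 lower and 4 did not pass. POR C (AT1G03630), a light-dependent protochlorophyllide reductase, had 166, 183 and 191 CPM in polysome RNA, against 80.4, 87.9 and 88.5 CPM in total RNA. GUN5 (AT5G13630), the large H subunit of magnesium chelatase, was the lower one at -0.33 ± 0.09, while the D subunit ALB1 (AT1G08520) was higher at 0.77 ± 0.08. The summed level of the 3 mesophyll markers was 32120 to 33790 CPM in polysome RNA and 22870 to 32480 CPM in total RNA, with 2 of 3 higher and CAB3 (AT1G29910) lower, and its part in these results was not tested.

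**Figure D2:**
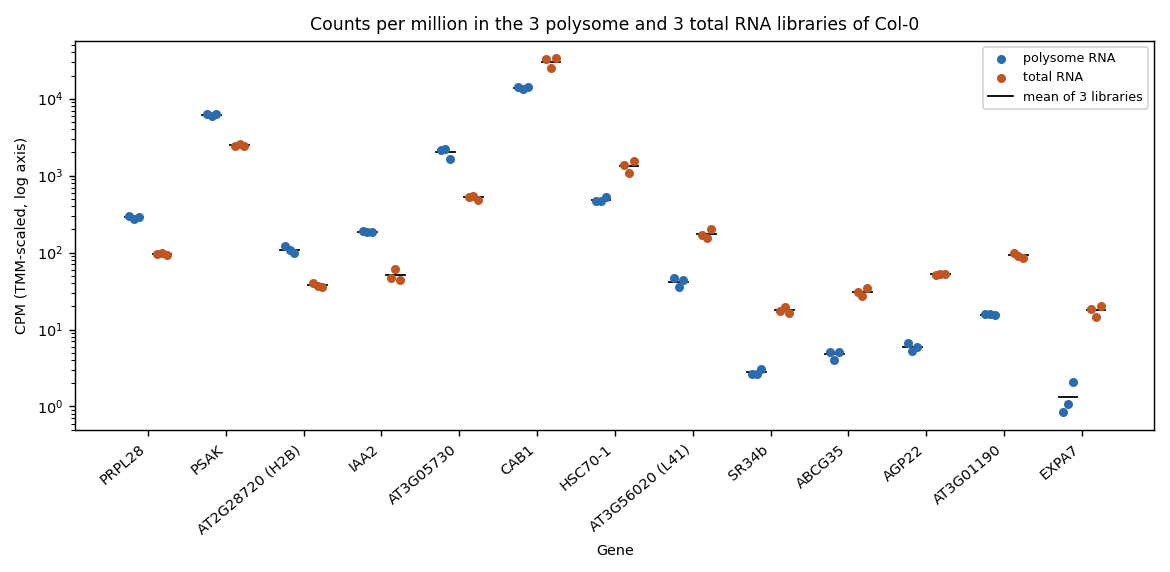
Scaled counts (CPM) in each of the 3 polysome (blue) and 3 total RNA (orange) libraries of Col-0 for 13 genes, on a log axis, with the mean of each group as a bar. PSAK sits near 6000 CPM in polysome RNA and near 2500 CPM in total RNA, while CAB1 and the genes to its right sit lower in polysome RNA, and the populations overlap in none of the 13.

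Other large protein complexes leaned toward polysome RNA. Of 56 genes for the mitochondrial respiratory chain and ATP synthase 31 were higher, 5 lower and 20 did not pass, with a median log2 ratio of 0.30. AT2G19680, subunit g of the ATP synthase, had 102, 95.99 and 101.2 CPM in polysome RNA, against 34.5, 37.7 and 32.7 CPM in total RNA. Scaled by library size alone, this list split evenly, with 16 higher and 14 lower. Of 38 genes listed as proteasome subunits 27 were higher and 4 lower, with a median of 0.51. The higher ones include FUS12 (AT2G26990) and EER5 (AT2G19560), at 0.65 and 0.46, which do not carry names of proteasome subunits. PAA1 (AT5G35590), a core alpha subunit, had 81.7, 73.2 and 72.7 CPM in polysome RNA, against 36.0, 42.8 and 38.8 CPM in total RNA. AT1G53780, annotated as a regulatory ATPase, stood far below its list, with 16.7, 10.9 and 11.7 CPM in polysome RNA, against 61.6, 76.8 and 68.9 CPM in total RNA (-2.35 ± 0.13 log2, SE).

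Histone genes and cell cycle genes, which both serve dividing cells, moved apart. Of 40 core histone genes 27 were higher, none was lower and 13 did not pass, with a median log2 ratio of 0.44. AT2G28720, an H2B-type histone, had 121, 108 and 98.9 CPM in polysome RNA, against 40.5, 36.5 and 35.2 CPM in total RNA. HTB2 (AT5G22880), another H2B gene, had 173, 173 and 164 CPM in polysome RNA, against 78.2, 96.8 and 77.5 CPM in total RNA. Plant histone mRNAs carry poly(A) tails and are thus retained in poly(A)+ libraries. With library size alone 19 histone genes were higher and 6 lower. Of 31 cell cycle genes 6 were higher, 13 lower and 12 did not pass, with a median of -0.38. CDC20.1 (AT4G33270), an activator of the anaphase-promoting complex, had 5.97, 5.25 and 5.88 CPM in polysome RNA, against 13.1, 21.0 and 17.2 CPM in total RNA. The replication helicase subunit MCM3 (AT5G46280) was at the other end, with 10.97, 12.8 and 11.4 CPM in polysome RNA, against 5.91, 8.10 and 5.54 CPM in total RNA. The 22 tubulin and actin genes had 6 higher and 6 lower, with ACT8 (AT1G49240), a vegetative actin, at 118, 106 and 93.0 CPM in polysome RNA, against 276, 226 and 258 CPM in total RNA.

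The listed families of auxin genes differed in direction. The Aux/IAA proteins are short-lived repressors that auxin removes, and of 26 tested 14 were higher, 3 lower and 9 did not pass, with a median log2 ratio of 0.57. IAA2 (AT3G23030) had 189, 183 and 187 CPM in polysome RNA, against 46.4, 60.8 and 44.6 CPM in total RNA (1.88 ± 0.10 log2, SE, adjusted p = 2.00e-15). IAA7 (AT3G23050) had 717, 652 and 678 CPM in polysome RNA, against 353, 329 and 309 CPM in total RNA. SHY2 (AT1G04240), also known as IAA3, was higher at 1.19 ± 0.10. The auxin response factors, which the repressors bind, had 1 of 15 higher and 7 lower, with a median of -0.22. ARF16 (AT4G30080) had 10.4, 8.89 and 10.9 CPM in polysome RNA, against 15.1, 14.4 and 16.1 CPM in total RNA.

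Auxin receptor genes were not counted as a list, and AFB2 (AT3G26810), an auxin receptor gene, stands for itself alone. It had 32.8, 36.5 and 32.7 CPM in polysome RNA, against 64.7, 57.7 and 68.7 CPM in total RNA. Of 16 GH3 genes, whose enzymes join auxin and jasmonate to amino acids, none was higher and 6 were lower. GH3.17 (AT1G28130) had 17.5, 20.14 and 24.6 CPM in polysome RNA, against 31.6, 30.5 and 36.4 CPM in total RNA. The small SAUR proteins of cell growth had 29 of 64 higher and 17 lower, with a median of 0.29, and with library size alone 19 were higher and 20 lower. AT3G53250 had 9.79, 9.96 and 7.67 CPM in polysome RNA, against 3.23, 4.65 and 3.72 CPM in total RNA. AT4G34750, another SAUR gene, went the other way, with 12.7, 10.7 and 10.4 CPM in polysome RNA, against 26.1, 24.2 and 24.6 CPM in total RNA. The JAZ repressors of jasmonate signalling had 4 of 9 higher and 1 lower, with JAZ12 (AT5G20900) at 48.5, 47.4 and 49.6 CPM in polysome RNA, against 26.6, 31.1 and 24.9 CPM in total RNA.

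Transcription factor families had more lower than higher members in 10 of the 11 families counted, though not all of these stood apart from all genes. AP2/ERF factors had 8 of 80 higher and 29 lower, MYB-type factors 37 of 183 higher and 63 lower, and bHLH factors 25 of 98 higher and 32 lower. In bZIP factors 9 of 54 were higher and 19 lower, in NAC factors 13 of 70 and 19, in homeobox factors 13 of 74 and 23, in TCP factors 3 of 18 and 5, in GATA factors 1 of 18 and 5, and in WRKY factors 16 of 58 and 18. The auxin response factors above make the tenth family. B-box factors, many of which act in light signalling, were the exception with 16 of 36 higher and 4 lower, but with library size alone they had 5 higher and 9 lower. The lower share in AP2/ERF, 36.2%, stood above the 27.0% of all genes, while that in NAC, TCP and GATA, 27.1% to 27.8%, did not stand apart from it. Auxin response factors had 46.7% lower, bZIP 35.2%, MYB-type 34.4%, bHLH 32.7% and homeobox 31.1%. WRKY factors had nearly equal numbers, 16 higher and 18 lower. The median log2 ratio was -0.016 in homeobox, -0.004 in WRKY and 0.023 in NAC factors, against 0.04 for all genes. The difference of these shares from that of all genes was not tested.

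Single factors reached large ratios. AT1G22190, an AP2/ERF factor, had 8.30, 10.1 and 9.16 CPM in polysome RNA, against 47.1, 41.3 and 57.9 CPM in total RNA (-2.43 ± 0.11 log2, SE). WRKY65 (AT1G29280) had 13.3, 11.9 and 12.8 CPM in polysome RNA, against 54.2, 39.8 and 51.4 CPM in total RNA. WRKY18 (AT4G31800), a regulator of defence, had 18.7, 16.8 and 18.4 CPM in polysome RNA, against 6.75, 8.25 and 7.84 CPM in total RNA. MYBL2 (AT1G71030), a repressor of anthocyanin synthesis, was higher in polysome RNA with 114, 111 and 154 CPM, against 58.2, 52.3 and 59.4 CPM in total RNA. HBI1 (AT2G18300), a bHLH factor that promotes growth, was also higher, at 1.24 ± 0.14. The jasmonate master factor MYC2 (AT1G32640) was lower, with 23.5, 22.1 and 19.6 CPM in polysome RNA, against 43.5, 40.5 and 45.1 CPM in total RNA, and its locus overlaps one on the opposite strand.

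The lists of transcripts known for regulation through their own RNA had more lower than higher members. The part of such regulation in these ratios was not tested. SR proteins are splicing factors whose own pre-mRNAs are spliced into forms without the full reading frame, and of 20 genes 3 were higher, 10 lower and 7 did not pass, with a median log2 ratio of -0.27. SR34b (AT4G02430) had 2.67, 2.68 and 3.06 CPM in polysome RNA, against 17.6, 19.3 and 16.1 CPM in total RNA (-2.67 ± 0.14 log2, SE, adjusted p = 1.51e-15). SR30 (AT1G09140) had 16.9, 19.6 and 16.4 CPM in polysome RNA, against 45.5, 53.4 and 50.4 CPM in total RNA. RS41 (AT5G52040) went the other way at 0.50 ± 0.08. These counts add up all splice forms of a gene, so forms cannot be compared.

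Some plant mRNAs carry a conserved peptide-coding frame upstream of the main one, which represses its translation, in several cases when a metabolite is abundant. Of 20 such genes tested 2 were higher, 13 lower and 5 did not pass, with a median of -0.43. AT5G50010, a bHLH factor gene of the SAC51 group, had 2.43, 2.68 and 3.00 CPM in polysome RNA, against 7.53, 9.34 and 8.71 CPM in total RNA. SAC51 (AT5G64340) itself did not pass, at 0.13 ± 0.09 (log2, SE, adjusted p = 0.239). HSF4 (AT4G36990), a heat shock factor also known as TBF1, had 32.9, 33.2 and 28.6 CPM in polysome RNA, against 63.8, 57.8 and 60.9 CPM in total RNA. TPPG (AT4G22590), a trehalose-phosphate phosphatase, was lower at -1.0045 ± 0.15 (log2, SE). Being bound by several ribosomes on the main frame and by 1 on the upstream frame cannot be told apart from being bound or not in a pooled polysome sample.

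Loci annotated as non-coding RNA or pseudogene were listed for comparison, since they have no annotated protein. Of 11 listed 8 could be tested, and 7 of these were lower and 1 did not pass, with a median log2 ratio of -0.97. ML3 (AT4G18120), a pseudogene by annotation, had 9.99, 10.4 and 10.03 CPM in polysome RNA, against 32.3, 36.3 and 30.8 CPM in total RNA. PMI15 (AT5G38150) had 20.02, 16.8 and 17.1 CPM in polysome RNA, against 38.2, 54.4 and 49.3 CPM in total RNA. AT5G10965 was lowest at -1.80 ± 0.27, and overlaps a locus on the opposite strand. AT1G28715 and AT5G09710 overlap other loci as well. None of the 8 was higher, but none had fallen to 0 either. Whether the reads left in the polysome libraries came from RNA without a reading frame was not tested.

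Stress genes showed no common direction in untreated Col-0. Of 37 rapid stress regulators 12 were higher, 7 lower and 18 did not pass, with a median log2 ratio of 0.10 that turned to -0.11 with library size alone. TCH3 (AT2G41100), a calmodulin-like protein of touch responses, had 252, 277 and 275 CPM in polysome RNA, against 108, 118 and 97.2 CPM in total RNA. BT4 (AT5G67480), a BTB scaffold protein, had 62.8, 52.7 and 54.4 CPM in polysome RNA, against 32.2, 35.3 and 29.9 CPM in total RNA. CZF1 (AT2G40140), a zinc finger protein, had 19.5, 20.03 and 21.9 CPM in polysome RNA, against 33.3, 27.3 and 37.4 CPM in total RNA. Of 82 heat shock protein and factor genes 17 were higher and 19 lower. HSC70-1 (AT5G02500), the constitutive cytosolic chaperone, had 465, 466 and 533 CPM in polysome RNA, against 1371, 1076 and 1546 CPM in total RNA. ACD32.1 (AT1G06460), an alpha-crystallin domain protein, had 124, 116 and 116 CPM in polysome RNA, against 54.3, 43.2 and 44.1 CPM in total RNA. Of 20 clock genes 4 were higher and 10 lower. LHY (AT1G01060), a morning factor, had 1.75, 2.04 and 2.42 CPM in polysome RNA, against 3.45, 4.03 and 4.04 CPM in total RNA, whereas PRR3 (AT5G60100), an evening component, was higher at 1.19 ± 0.15.

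Other large gene families were below the background in calls or leaned lower. Of 204 F-box genes tested, from 653 listed, 22 were higher and 54 lower, and of 121 NB-LRR resistance genes 9 were higher and 41 lower. Pentatricopeptide repeat genes, whose proteins process organelle RNA, had 44 of 253 higher and 41 lower, with 168 that did not pass. AT5G40910, a TIR-type resistance gene, had 18.1, 13.8 and 16.2 CPM in polysome RNA, against 39.2, 46.8 and 38.96 CPM in total RNA. These families had low counts, with medians in total RNA of 4.45 CPM in F-box, 7.10 CPM in NB-LRR and 4.21 CPM in pentatricopeptide repeat genes. The part of these levels in the number of calls was not tested.

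Most lists of cell wall genes had more lower than higher members in polysome RNA, while the pooled list of expansins and xyloglucan enzymes had equal numbers. Class III peroxidases, secreted enzymes that cross-link the wall, had 7 of 63 higher and 34 lower, with a median log2 ratio of -0.92. AT3G01190 had 15.9, 15.8 and 15.3 CPM in polysome RNA, against 98.2, 91.3 and 85.4 CPM in total RNA (-2.55 ± 0.10 log2, SE, adjusted p = 1.22e-18). AT1G05250, the lowest of the list, had 1.18, 1.82 and 0.922 CPM in polysome RNA, against 30.8, 22.0 and 31.04 CPM in total RNA. Many peroxidases are known as root genes, and the root hair marker level above was low in the same libraries; its part in this result was not tested.

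Of 92 arabinogalactan and extensin-like genes 23 were higher, 39 lower and 30 did not pass, with a median of -0.39. The extensins and proline-rich proteins among them had 12 of 45 higher and 23 lower, with a median of -0.63, and the arabinogalactan proteins 11 of 47 higher and 16 lower, with a median of -0.20. AGP22 (AT5G53250) encodes 63 amino acids and had 6.65, 5.25 and 5.94 CPM in polysome RNA, against 50.4, 52.7 and 53.2 CPM in total RNA. AGP14 (AT5G56540), of 60 amino acids, had 3.27, 2.79 and 2.54 CPM in polysome RNA, against 27.8, 24.5 and 29.7 CPM in total RNA. AGP13 (AT4G26320) and AGP24 (AT5G40730), of 59 and 69 amino acids, were lower at -3.72 ± 0.24 and -2.60 ± 0.15. Cellulose synthases and their relatives had 2 of 30 higher and 18 lower. CSLD5 (AT1G02730), which acts at the division plate, had 8.61, 10.7 and 10.1 CPM in polysome RNA, against 24.0, 25.6 and 31.3 CPM in total RNA. CESA6 (AT5G64740), a primary wall cellulose synthase, was nearest the list median at -0.45 ± 0.09. Expansins and xyloglucan enzymes, which loosen the wall, went both ways, with 17 of 54 higher and 17 lower. The expansins among them had 6 of 25 higher and 9 lower, with a median of -0.19. The xyloglucan enzymes had 11 of 29 higher and 8 lower, with a median of 0.15. EXLA1 (AT3G45970) had 56.6, 57.7 and 60.4 CPM in polysome RNA, against 25.6, 27.6 and 24.6 CPM in total RNA, whereas XTH14 (AT4G25820) had 1.92, 1.93 and 1.79 CPM in polysome RNA, against 17.8, 13.8 and 19.8 CPM in total RNA.

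Lists of genes for proteins of the plasma membrane and the secretory route also had more lower than higher members, though not all had lower summed levels. ABC transporters had 7 of 69 higher and 44 lower, with a median log2 ratio of -0.65. ABCG35 (AT1G15210), a full-size transporter of 1442 amino acids, had 5.10, 4.07 and 5.07 CPM in polysome RNA, against 30.7, 26.9 and 34.5 CPM in total RNA. ABCG34 (AT2G36380) had 30.7, 29.4 and 33.0 CPM in polysome RNA, against 79.4, 75.2 and 83.9 CPM in total RNA. Receptor-like kinases, which sense signals at the cell surface, had 42 of 298 higher and 143 lower. AT5G63930, a leucine-rich repeat kinase, had 4.79, 5.36 and 4.26 CPM in polysome RNA, against 15.8, 16.4 and 17.2 CPM in total RNA. CRK22 (AT4G23300), of the cysteine-rich group, was higher with 71.1, 76.0 and 67.5 CPM in polysome RNA, against 33.1, 33.9 and 30.2 CPM in total RNA.

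Cytochromes P450, oxidases anchored in the endoplasmic reticulum, had 25 higher, 86 lower and 68 that did not pass. CYP79B3 (AT2G22330), which makes a precursor of indole glucosinolates, had 14.7, 13.7 and 18.7 CPM in polysome RNA, against 52.1, 49.9 and 61.7 CPM in total RNA. Water channels had 8 of 29 higher and 12 lower, and their summed levels overlapped, at 10290 to 11310 CPM in polysome RNA and 9143 to 11790 CPM in total RNA. TIP2;2 (AT4G17340), a tonoplast channel, had 71.6, 76.7 and 86.6 CPM in polysome RNA, against 363, 239 and 335 CPM in total RNA. Lipid transfer proteins had 21 of 73 higher and 35 lower, and defensin-like and other small secreted peptides 14 of 80 higher and 32 lower, from 365 listed. The summed levels of both lists were higher in polysome RNA. For lipid transfer proteins they were 7470 to 7673 CPM, against 4251 to 5428 CPM in total RNA. For the small peptides they were 2740 to 3255 CPM, against 1553 to 1740 CPM in total RNA. AT4G22212, a defensin-like gene, had 10.8, 11.8 and 14.1 CPM in polysome RNA, against 69.9, 55.7 and 77.7 CPM in total RNA. AT3G05730, annotated in the same way, was at the opposite end with 2154, 2225 and 1661 CPM in polysome RNA, against 535, 544 and 483 CPM in total RNA.

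The 12 largest differences in each direction were taken among 7567 genes that passed the test, had a mean of at least 3 log2 CPM and did not overlap between the populations, of which 5113 were higher and 2454 lower. The highest was AT3G16670, of the Ole e 1 and extensin family, with 217, 247 and 203 CPM in polysome RNA, against 51.0, 54.6 and 42.9 CPM in total RNA (2.16 ± 0.12 log2, SE, adjusted p = 1.56e-13). AT3G05730 and IAA2 followed at 1.95 and 1.88. CRR42 (AT5G20935), needed for the plastid NADH dehydrogenase-like complex, was at 1.81, and AT1G09310, of unknown function, was at 1.76. SEN1 (AT4G35770), a dark-induced senescence gene, had 484, 459 and 376 CPM in polysome RNA, against 138, 156 and 95.7 CPM in total RNA. AT2G03420 and AT2G03410 had nearly equal values in every library and overlap on opposite strands, so that they count as 1 signal, at 1.75 and 1.74. AT1G62780 was at 1.74, the dehydrin gene AT1G54410 at 1.72, RIC1 (AT2G33460), an effector of ROP GTPases, at 1.69, and AT4G16800 at 1.66.

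At the low end AT4G29030, a putative membrane lipoprotein of 115 amino acids, had 2.40, 1.61 and 2.59 CPM in polysome RNA, against 29.0, 38.8 and 47.8 CPM in total RNA (-4.04 ± 0.18 log2, SE, adjusted p = 2.10e-13). The root hair peroxidase AT4G26010 was at -3.60, and AGP14 and AGP22 at -3.21 and -3.09. AT2G11225, an uncharacterized protein, had 11.1, 9.96 and 9.68 CPM in polysome RNA, against 80.4, 102 and 88.0 CPM in total RNA. AT5G03545, a phosphate starvation gene of 70 amino acids, was at -3.09 ± 0.30. The others were AT1G09800 at -3.07, AT4G07820 at -3.07, AT3G61010 at -3.04, DEG14 (AT5G27660) at -3.03, FRO5 (AT5G23990), a metal reductase, at -2.99, and AT5G24620 at -2.98. No fold is given for genes with no count in a whole group.

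The encoded protein's length went with the ratio over all genes. Of 20941 tested genes with an annotated protein, those of 200 to below 300 amino acids had the highest median log2 ratio, 0.29, with 45.7% higher and 18.9% lower. The median fell with length to 0.07 at 300 to below 500, -0.07 at 500 to below 800 and -0.27 at 800 or more amino acids, where 11.4% of 2196 genes were higher and 46.0% lower. Proteins below 100 amino acids had a median of -0.16, but among genes with a mean of at least 3 log2 CPM this class turned to 0.25 with 371 genes, so its sign depends on low-count genes. In that subset the highest median was 0.47, at 100 to below 200 amino acids, followed by 0.43 at 200 to below 300, and the lowest was again at 800 or more, -0.19.

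Hydrophobic stretches were counted as windows of 19 residues with a mean Kyte-Doolittle value of at least 1.6, a common mark of a membrane-spanning segment. Genes with no such window had a median of 0.10, those with 1 window -0.03, those with 2 to 5 windows -0.09 and those with 6 or more -0.27, where 10.4% of 893 were higher and 42.6% lower. The 3975 genes with a hydrophobic N terminus, as in secreted proteins, had 21.6% higher and 36.5% lower, against 32.8% higher and 24.7% lower in the other 16966. Length and windows each went with the ratio when the other was held: among proteins of 800 or more amino acids the median was -0.39 with at least 1 window and -0.16 without, and among those of 200 to below 300 amino acids it was 0.24 with a window and 0.30 without. Below 100 amino acids the order was the other way, at -0.08 with a window and -0.18 without.

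**Figure D3:**
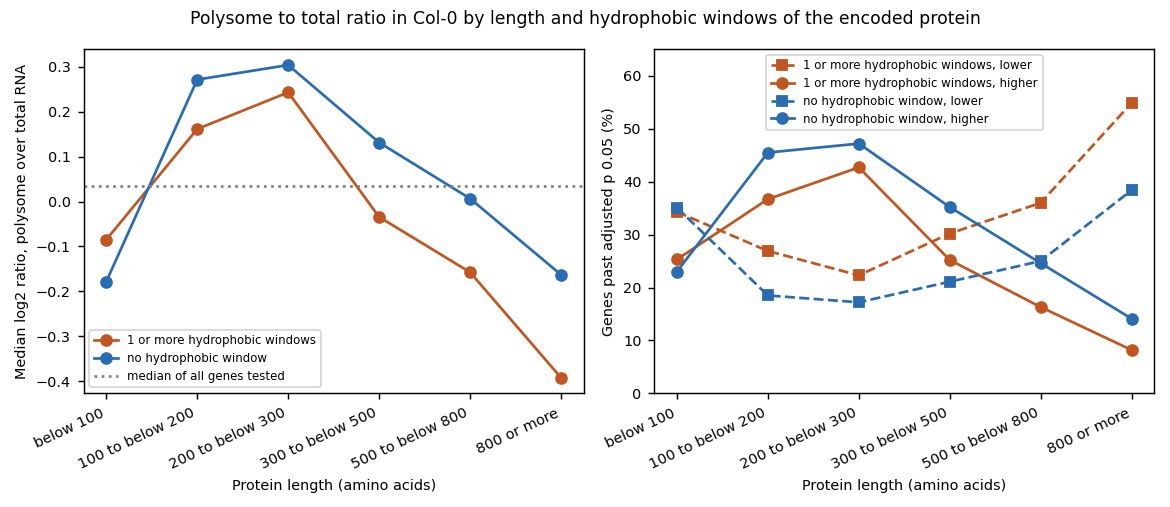
Median log2 ratio of polysome over total RNA (left) and share of genes past an adjusted p of 0.05 (right) in Col-0, by length of the encoded protein and by whether it has a hydrophobic window of 19 residues. The median is highest at 200 to below 300 amino acids, and at 800 or more amino acids it is -0.39 with a window and -0.16 without.

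The 5' end of the transcript went with the ratio as well. Genes whose annotated 5' leader has no ATG had a median of 0.11 and those with 4 or more -0.08, with 25.5% higher and 33.7% lower. Leaders of 400 or more bases had a median of -0.14, against 0.12 for leaders of 100 to below 200 bases. Genes of 1 exon had a median of -0.18, with 16.3% higher and 35.9% lower, and those of 7 to 12 exons 0.16, with 39.0% higher and 20.2% lower. These classes overlap with each other and with gene family, and which of them carries the difference was not tested.

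**Figure D4:**
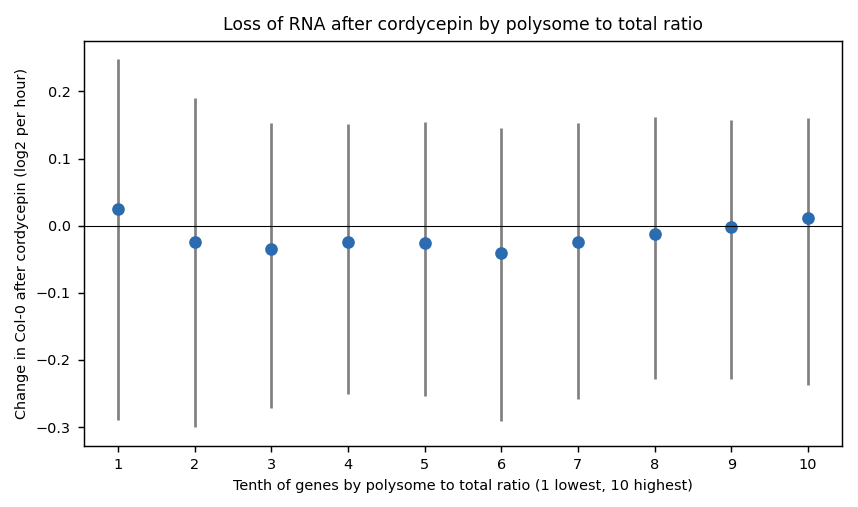
Median change of RNA in Col-0 after cordycepin (points; bars span the middle 50% of genes), in log2 per hour relative to all RNAs of a library, for 10 equal bins of genes ordered by the polysome to total ratio. The medians lie between -0.04 and 0.03 in all 10 bins, and the bars overlap throughout.

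The ratio had little relation over all genes to the rate at which an RNA was lost. A lower share passed the test for fast loss among the genes poorest in polysome RNA. The loss was the slope of log2 CPM over 0 to 120 min of cordycepin, relative to the average RNA of the library, over 19774 genes with both values. The median slope was 0.007 log2 per hour for genes higher in polysome RNA, -0.008 for those lower and -0.04 for those that did not pass. Spearman's rho between ratio and slope was -0.008 and Pearson's r -0.03 across genes, which share libraries and are no replicates. The share of genes lost faster than average at an adjusted p under 0.05 was 27.3% of the higher and 25.9% of the lower genes, against 27.1% of all. It was 22.3% of the genes lower by over 2-fold and 20.4% in the lowest of the 10 bins. The slopes themselves did not show less fast loss there. Their lower quartile was -0.302 log2 per hour for the genes lower by over 2-fold and -0.29 in the lowest bin, against -0.262 for all. The part of low counts in the number of calls was not tested. Over times up to 60 min the median slope was 0.0423 log2 per hour for the higher and -0.0414 for the lower genes. Lists with fast loss were found on both sides. SAUR genes had a median slope of -1.10 log2 per hour, JAZ genes -0.92, core histones -0.63 and B-box factors -0.53. The median ratios of these lists were above that of all genes. GH3 genes had a slope of -0.68, expansins -0.62, guard cell line markers -0.61, root hair markers -0.59 and GATA factors -0.52. Their median ratios were below that of all genes. Cytosolic ribosomal proteins, with a slope of 0.13, were among the stable classes. The cordycepin libraries were rRNA-depleted and not poly(A)+-selected, so the slopes and the ratios come from different kinds of library.

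In rh6812 most classes showed the direction seen in Col-0. Over all genes, 5444 were higher in polysome RNA of rh6812 (26.0%) and 5696 lower (27.2%). Of these, 4406 were also higher in Col-0, which is 80.9% of the rh6812 calls and 68.6% of the Col-0 calls, and 4006 were lower in both, 70.3% and 70.8% of the calls. The opposite direction was found for 58 genes higher in rh6812 and lower in Col-0, and for 166 lower in rh6812 and higher in Col-0. The difference between the ratios passed an adjusted p of 0.05 in 2043 genes (9.75%).

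Plastid ribosomal proteins had a median log2 ratio of 0.64 in rh6812 and 0.87 in Col-0, with the difference past the test in 2 of 40 genes, and photosystem subunits had 45 of 49 higher in rh6812 and 47 in Col-0. The auxin families differed more in their medians: SAUR genes were at -0.35 in rh6812 and 0.29 in Col-0, and Aux/IAA genes at 0.18 in rh6812 and 0.57 in Col-0, with the difference itself past the test in 11 of 64 SAUR genes, 4 higher and 7 lower in rh6812, and in 7 of 26 Aux/IAA genes, 1 higher and 6 lower in rh6812. IAA7 had a log2 ratio of 0.44 in rh6812 and 1.05 in Col-0 (difference -0.61, adjusted p = 0.000898). For CAB1 the ratio was -0.32 in rh6812 and -1.12 in Col-0, a difference of 0.81 (adjusted p = 0.000484). Cell cycle genes had a median of 0.07 in rh6812 and -0.38 in Col-0. Several tissue lists were lower in rh6812. Guard cell line markers had a median of -2.10 in rh6812 and -0.31 in Col-0, and the difference passed in 7 of 9 genes, all lower in rh6812. Epidermis markers had -0.62 in rh6812 and -0.07 in Col-0, with 5 of 7 genes lower in rh6812, and phloem markers -0.34 in rh6812 and 0.04 in Col-0, with 4 of 5 lower in rh6812. Root hair markers were lower in both, with medians of -5.25 in rh6812 and -3.54 in Col-0, but the difference passed in only 2 of 9 genes.

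**Figure D5:**
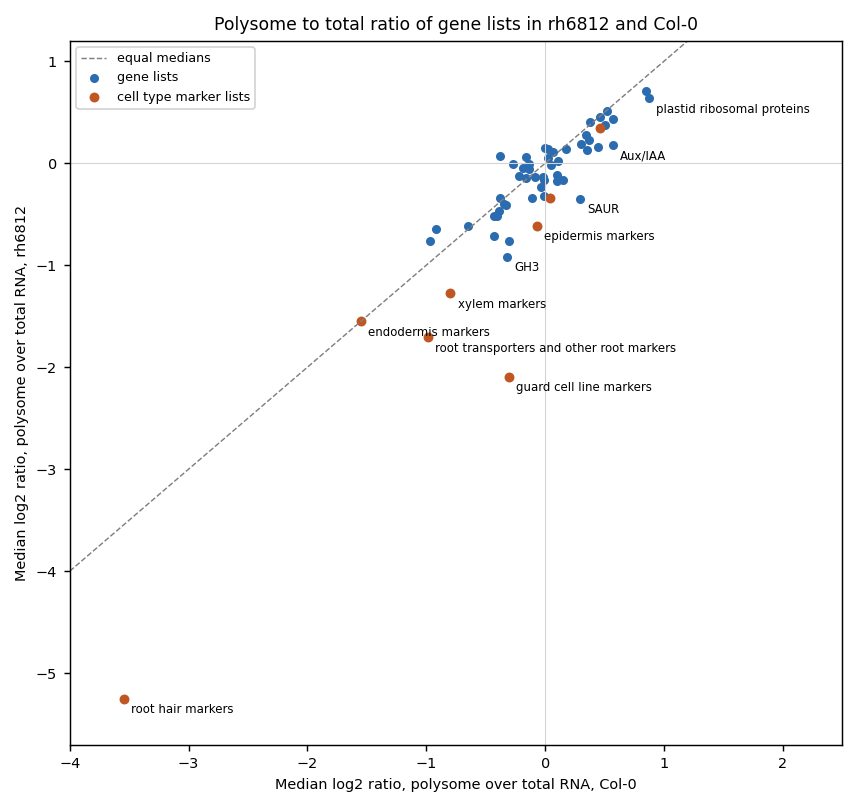
Median log2 ratio of polysome over total RNA for each gene list in rh6812 (vertical axis) and Col-0 (horizontal axis), with equal medians on the dashed line. Most lists lie near the line, while SAUR, GH3, guard cell line and root hair lists lie below it, with guard cell line markers at -2.10 in rh6812 and -0.31 in Col-0.

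The helicases named in rh6812 were themselves measured in Col-0. RH6 (AT2G45810), RH8 (AT4G00660) and RH12 (AT3G61240) belong to the DHH1/DDX6 family, which moves mRNAs from translation to decapping. RH6 had 65.7, 70.8 and 67.6 CPM in polysome RNA, against 56.0, 55.2 and 52.3 CPM in total RNA, higher by 0.32 ± 0.08 (log2, SE, adjusted p = 0.00118), and its locus overlaps one on the opposite strand. RH6 did not pass with library size alone. RH12 had 43.5, 39.96 and 43.8 CPM in polysome RNA, against 39.7, 36.2 and 39.4 CPM in total RNA (adjusted p = 0.176). RH8 had 27.6, 31.4 and 30.0 CPM in polysome RNA, against 32.9, 32.6 and 32.5 CPM in total RNA (adjusted p = 0.272). Of 26 mRNA decay factors 9 were higher, 6 lower and 11 did not pass, with a median of 0.05. DCP2 (AT5G13570), the decapping enzyme, had 26.8, 26.03 and 26.5 CPM in polysome RNA, against 16, 18.6 and 14.9 CPM in total RNA. LSM1B (AT3G14080), of the ring that binds deadenylated 3' ends, had 15.3, 12.8 and 14.8 CPM in polysome RNA, against 19.4, 20.3 and 22.2 CPM in total RNA. DCP5 (AT1G26110), a translational repressor of the same bodies, had 121, 115 and 114 CPM in polysome RNA, against 120, 108 and 120 CPM in total RNA, and the populations overlapped (adjusted p = 0.955).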

How the data were processed

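The authors deposited whole-number read counts per gene in 1 table. Per the labels, RNA was from whole seedlings and the libraries used for the ratios were poly(A)+ selected; per the submitters' processing notes, TAIR10, Bowtie2 2.2.5 and TopHat2 2.0.14 were named. No counting program or strand setting is stated. Gene names, protein lengths and overlaps came from the TAIR10.1 annotation, matched by locus ID.

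Of 27667 loci, 212 had no value in the poly(A)+ libraries. Counts of 12 libraries (polysome and total RNA of rh6812 and Col-0, 3 each) were filtered with filterByExpr (minimum count 10, minimum total 15), scaled by TMM and fitted with 1 mean per group by edgeR 4.0.16 (robust quasi-likelihood, R 4.3.3, limma 3.58.1), with Benjamini-Hochberg adjustment over all 20949 genes and a threshold of 0.05. The SE is the log2 ratio divided by the root of F, an approximation. Alternatives were library size alone, RLE factors, DESeq2 1.42.0, other filters, the 6 Col-0 libraries, a replicate block and each replicate left out. Total counts were 9528637 to 30654342 per Col-0 library.

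The members and lists were chosen with earlier results of these data known. The named genes were the 12 largest ratios each way, in each list up to 4 with the smallest p, the one nearest the median, the highest and the lowest, the non-coding loci, and RH6, RH8 and RH12. The lists of tRNA synthetases, auxin response factors, lipid transfer proteins, small peptides and other root genes, and the classes by 5' leader and exons, were added after values were seen, and list patterns were corrected by annotation.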

Additional observations from a re-analysis of the deposited data

Results flagged for a closer look

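The polysome to total ratio of these named genes differed between rh6812 and Col-0 by the interaction term of the same fit, at an adjusted p under 0.05; over all genes 9.75% did. Every value is the log2 ratio in rh6812 minus that in Col-0.

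The ratio was higher in rh6812 for CYP79B3 by 1.54, AT5G50010 by 1.14, AT2G40010 by 1.14, SR30 by 1.13, AT3G61010 by 1.10, LHY by 1.00, AT2G11225 by 0.98 and ML3 by 0.87. A smaller positive difference was found for DEG14 by 0.86, AT1G22190 by 0.83, AT5G24620 by 0.82, CAB1 by 0.81, CAB3 by 0.80, AT5G40910 by 0.80, LHB1B1 by 0.78 and AGP24 by 0.77. The least positive differences were those of CAB2 by 0.72, AT1G53780 by 0.69, PMI15 by 0.64, HSC70-1 by 0.59, PAB2 by 0.49, HSF4 by 0.44 and MYC2 by 0.43. CYP79B3 had a ratio of -0.25 in rh6812 and -1.78 in Col-0, and SR30 had -0.38 in rh6812 and -1.51 in Col-0.

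The ratio was lower in rh6812 for AT3G01190 by -2.28, AT4G26010 by -1.49, AT4G29030 by -1.40, EIR1 by -1.34, SUC2 by -1.10, AT1G54410 by -0.93, RH6 by -0.76, AT4G22212 by -0.65 and AT2G28720 by -0.65. A smaller negative difference was found for AT1G09310 by -0.62, GH3.17 by -0.62, SWEET11 by -0.61, IAA7 by -0.61, EXLA1 by -0.52, IAA2 by -0.47, LHCB2.3 by -0.46 and AT2G19680 by -0.38. SUC2 had a ratio of -1.06 in rh6812 and 0.04 in Col-0, and RH6 had -0.44 in rh6812 and 0.32 in Col-0. The rh6812 polysome libraries held 4611462 to 21498100 counts, against 9528637 to 30654342 in Col-0, and the part of depth in these differences was not tested.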

How the results depend on the processing

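The count of genes past the threshold kept within 1.5 times under the other settings, except for the 3841 higher genes with library size alone. Other scaling, DESeq2, the filters and the fit on the 6 Col-0 libraries gave 11358 to 12215 calls in place of 12083, none in the opposite direction. Leaving out 1 replicate gave 10841 to 11710 calls, with 5756 to 6176 higher and 5038 to 5534 lower.

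With library size alone the cytosolic ribosomal protein list had 93 higher and 39 lower, core histones 6 lower, class III peroxidases 4 higher and receptor-like kinases 17 higher. Median log2 ratios turned to -0.157 in translation factors, -0.127 in tubulins and actins, -0.165 in NAC, -0.0468 in B-box, -0.128 in heat shock, -0.113 in rapid stress, -0.171 in mRNA decay, -0.203 in pentatricopeptide repeat, -0.18 in phloem and -0.0747 in helicase genes. That setting moves the median of all genes to -0.188. Single ratios turned to -0.18 for SUC2, -0.213 for DCP5 and -0.0747 for RH12. NAC also turned to -0.023 with at least 1 CPM in 3 libraries. DCP5, near 0, was -0.0266 with RLE factors, -0.0265 with DESeq2, -0.00322 with at least 1 CPM and -0.0379 on the 6 Col-0 libraries, where SUC2 was -0.00685 and 1 histone gene was lower.

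Leaving out 1 replicate gave 12 to 22 lower cytosolic ribosomal protein genes, 12 without total replicate 3, and 0 to 1 lower photosystem genes. The bHLH median ranged from -0.124 to 0.0023, and that of NAC from -0.0389, without total replicate 1, to 0.108. SUC2 ranged from -0.042, without total replicate 2, to 0.103, and DCP5 from -0.045, without the same library, to 0.0334, with -0.0238 without polysome replicate 1.

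Among genes with a mean of at least 3 log2 CPM the medians by protein length, short to long, were 0.2484, 0.4708, 0.4299, 0.1983, 0.0281 and -0.1918. By hydrophobic windows they were 0.2319, 0.1183, 0.07478 and -0.168, and 0.04265 with and 0.196 without a hydrophobic N terminus. Median slopes after cordycepin were 0.0423 log2 per hour for the higher and -0.0414 for the lower genes up to 60 min. Under library size alone they were -0.182, -0.197 and -0.226 for the higher, the lower and those that did not pass. The cause of these changes was not tested.

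Polysome and total libraries share replicate numbers, and the labels state no pairing. The correlations of same-numbered Col-0 libraries were 0.225, 0.0655 and 0.33. Each Col-0 polysome library correlated best with the total library of its own number. So did each of rh6812, at 0.304, 0.145 and 0.246. Seen from the total side, replicate 2 of Col-0 correlated best with polysome replicate 1, at 0.102. The main fit took no pairs, so a pairing, if there was one, was left out of it. With the replicate block there were 12835 calls, 6843 higher and 5992 lower, of which 12007 were shared. Counts of a few per library limit the lowest genes, and the shallowest Col-0 library held 9528637 counts.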
